A study of Mus musculus with 6 samples.

Results

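The enzymes described here feed pyruvate and amino acid carbon into the tricarboxylic acid (TCA) cycle and turn the cycle itself, apart from succinate dehydrogenase. The set holds 34 genes, listed by symbol for their place in the pathway with earlier results of these data known, and all 34 were found among the 22173 gene symbols of the deposited table. Expression was measured by RNA-seq in livers of 6 wild-type mice (Mus musculus), 3 given DDK and 3 given vehicle. All 6 mice were fed the HFHC diet from 6 weeks of age for 16 weeks, and DDK or vehicle was given in the last 4 of those weeks. HFHC and DDK are printed as the labels have them, without spelled-out names, and DDK is a limonoid according to the title. The dose, the route, the sex and the strain of the mice are not given in the sources used here, and no group without the diet is among the samples used here. The series asked how DDK acts against steatohepatitis, and its title relates the compound to succinate dehydrogenase, the cycle enzyme whose subunits are taken up here only beside the others. All values are transcript levels, so enzyme amounts, activities and fluxes were not measured.

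As background, pyruvate made from glucose, lactate or alanine crosses the inner mitochondrial membrane through the pyruvate carrier and then has a pair of fates. The pyruvate dehydrogenase complex turns it into acetyl-CoA, which citrate synthase joins to oxaloacetate, while pyruvate carboxylase makes oxaloacetate directly, a step that refills the cycle (anaplerosis) and starts gluconeogenesis in liver. Transaminases and glutamate dehydrogenase link the cycle's keto acids to amino acids and to the nitrogen that liver passes to urea.

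In DDK-treated livers most transcripts of this set stood lower than in vehicle livers, led by pyruvate carboxylase, mitochondrial isocitrate dehydrogenase Idh2 and the acetyltransferase Dlat, while the pyruvate carrier subunit Mpc2 stood higher. Values are FPKM (fragment counts divided by gene length and by the library's total), and fold changes are differences of mean log2(FPKM + 1), DDK minus vehicle, with their standard errors (SE) from limma. A gene was called when its limma p, adjusted over the 10681 genes tested, was under 0.05. Of the 34 members 32 passed the filter on low values, and Pdk3 and Pdp1 did not. Among those 32, 18 were called lower (56.2%) and 1 higher, Mpc2. Of all 10681 genes 30.3% were called lower and 10.2% higher, 40.5% in either direction. With DDK replicate 2 left out, 11 members were called lower (34.4%, against 16.3% of all genes) and 1 higher (3.12%, against 5.71%). The median log2 fold change was -0.47 over the 32 members and -0.23 over all genes. The groups did not overlap for 23 of the 32 members, 20 of them lower in DDK, against 53.3% of all genes in either direction and 39.2% lower.

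The balance of these counts moved with the scaling. After median-ratio scaling, which moves the median of all genes from -0.23 to 0.00, 6 members were called lower (18.8%, against 15.4% of all genes) and 3 higher (9.38%, against 18.4%). Quantile normalization gave 16 lower members (50%, against 16.3%) and 1 higher (3.12%, against 17.7%), rescaling to TPM gave 24 lower (75%, against 46.1%) and 1 higher (3.12%, against 5.91%), and a correction for gene length gave 13 lower (40.6%, against 17.3%) and 3 higher (9.38%, against 16.1%). Relative to the median of all genes, the members' median was -0.24 in the values as deposited, -0.16 with median-ratio scaling, -0.40 with quantiles, -0.26 in TPM and -0.17 with the length correction. The 6 members called lower under each of the 19 alternatives run were Pcx, Idh2, Dlat, Suclg2, Sucla2 and Cs, and Mpc2 was called higher under each. Each of the 19 called members kept its direction under all 19. In the plot of fold changes under 5 scalings, Mpc2 and these 6 genes are the members with filled symbols in every scaling.

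**Figure D1:**
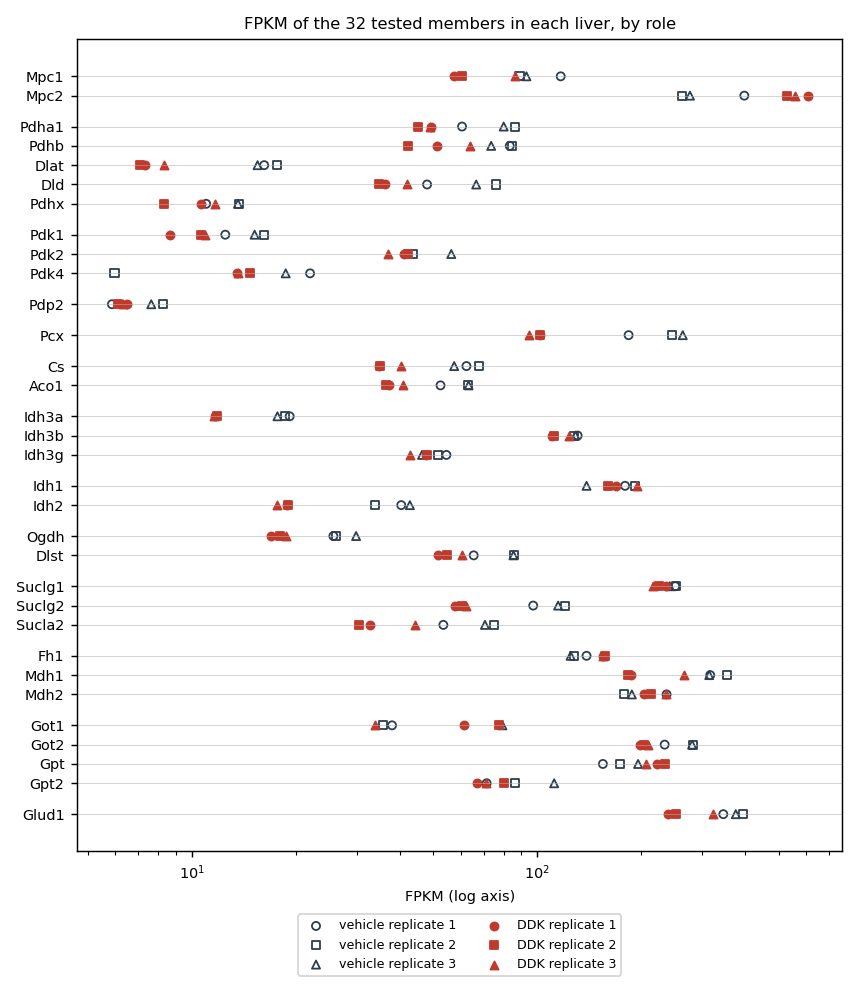
FPKM of the 32 tested members (log axis) in each of the 3 DDK livers (filled) and 3 vehicle livers (open), with the members listed by role. The DDK values of Pcx, Idh2, Dlat and Cs lie left of all vehicle values and those of Mpc2 lie right of them, while Got1 and Pdk4 have overlapping groups and a wide spread.

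Totals behind the values were 26576291 to 30237490 fragments in the DDK libraries and 33963898 to 36105315 in the vehicle libraries, and tested members had from 559 to 42479 fragments in a library. Vehicle replicate 1 was the lowest vehicle liver for 11 of the 18 members called lower, and DDK replicate 3 was the highest DDK liver for 14 of them. The members' median deviation from the vehicle mean was -0.59, -0.53 and -0.33 in DDK replicates 1 to 3 and -0.09, 0.08 and 0.07 in vehicle replicates 1 to 3 on the log2 scale. Over all genes it was -0.20, -0.27 and -0.19 in DDK and -0.08, 0.02 and 0.07 in vehicle, so vehicle replicate 1 was low by about as much over all genes as over the members. Hepatocyte markers were high in all livers, with a summed FPKM of 93014 to 99148 in DDK and 57532 to 74052 in vehicle. Of these 18 markers 7 were called higher (38.9%, against 10.2% of all genes) and 2 lower (11.1%, against 30.3%). Macrophage markers were called lower in 10 of 15 (66.7%, against 30.3% of all genes, summed FPKM 197 to 494 in DDK against 669 to 1092 in vehicle). Stellate cell markers were called lower in 9 of 12 (75.0%, 65.4 to 89.9 against 148 to 194). Endothelial markers were called lower in 4 of 12, a share (33.3%) close to that of all genes (59.9 to 78.8 against 86.8 to 128). No marker of these cells was called higher. Of 8 cholangiocyte markers, 7 of them tested, 1 was called higher and 1 lower (41.6 to 67.9 against 52.1 to 76.2), of 5 red blood cell genes 2 higher and 1 lower (368 to 726 against 391 to 530), and of 10 T, B and NK cell markers, 5 of them tested, 0 (7.41 to 16.7 against 7.24 to 12.6). Of 12 muscle, fat and pancreas markers, 5 (Lep, Prss1, Try4, Pnlip and Cpa1) were listed at 0 in every library, and the 4 that were tested had no call (summed FPKM 22.9 to 35 against 21.2 to 28.1). In bulk tissue fewer cells of a type and less RNA per cell cannot be told apart, and the part of these shifts in the members' values was not tested.

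The subunits of the mitochondrial pyruvate carrier, which work as a heterodimer, moved in opposite directions. Mpc2 (chromosome 1, 165460637 to 165481214 on GRCm38, GENCODE M21) stood at an FPKM of 607, 529 and 559.8 in DDK replicates 1 to 3 and at 398, 262 and 277 in vehicle replicates 1 to 3. The groups did not overlap, vehicle replicate 1 was the vehicle liver nearest to DDK, and the rise was 0.88 ± 0.17 on the log2 scale (adjusted p = 0.00465). With a length of 806 bp behind its FPKM, Mpc2 was the shortest member, and across the 32 tested members longer genes had lower fold changes (Spearman rho -0.49, a description over genes that share libraries, against -0.25 over all genes). After the length correction the log2 fold change of Mpc2 was 0.52, still called. Its merged exons in GENCODE M21 span 7344 bp, so the level of its FPKM and of its ratio to Mpc1 depends on the gene model used. Mpc1 (chromosome 17, 8282904 to 8297661) stood at 57.4, 60.4 and 86.0 in DDK and at 117, 88.9 and 93.1 in vehicle, without overlap but with DDK replicate 3 close to the vehicle livers (-0.56 ± 0.18, adjusted p = 0.0314). The call of Mpc1 ended with any of 4 livers left out: DDK replicate 1 (adjusted p = 0.119) or 2 (0.117), or vehicle replicate 1 (0.0689) or 3 (0.0697). It also ended with low genes kept in (0.0809) and with median-ratio scaling (-0.25, adjusted p = 0.378). Within each library, which leaves out any factor that scales the whole library, the ratio of Mpc1 to Mpc2 was 0.0947, 0.114 and 0.154 in DDK and 0.294, 0.340 and 0.336 in vehicle. As log2 of (FPKM + 1), that ratio was -3.06 ± 0.35 (SD, n = 3) in DDK and -1.62 ± 0.12 in vehicle. The difference of -1.44 was the furthest apart of the 12 ratios as deposited (exact permutation test, two-sided, p = 0.1, the smallest that 3 against 3 allows, and 0.171 adjusted over the 12 pairs). It ranged from -1.62 to -1.01 over the 10 alternatives run for ratios, and that of Idh1 to Idh2 from 0.85 to 1.27. A ratio of genes of unlike length does not leave out an effect of gene length.

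The pyruvate dehydrogenase complex, which commits pyruvate to acetyl-CoA, had 4 of its 5 measured genes called lower (80.0%, against 30.3% of all genes). Dlat encodes the E2 acetyltransferase that forms the core of the complex (chromosome 9, 50634633 to 50659780), and it stood at an FPKM of 7.31, 7.06 and 8.30 in DDK and 16.2, 17.6 and 15.5 in vehicle. All DDK livers lay well below all vehicle livers, and Dlat fell by 1.03 ± 0.13 on the log2 scale (adjusted p = 0.000914). Dld, the E3 subunit that the complex shares with 2-oxoglutarate dehydrogenase and the glycine cleavage system, stood at 36.3, 34.9 and 41.9 in DDK and 48.0, 76.2 and 66.6 in vehicle (-0.72 ± 0.17, adjusted p = 0.0107). Pdha1, the catalytic E1 alpha subunit, stood at 49.4, 45.3 and 48.9 against 60.6, 86.5 and 80.0 (-0.64 ± 0.15, adjusted p = 0.00961). Vehicle replicate 1 was the lowest vehicle liver for both Dld and Pdha1, and neither gene's groups overlapped. Pdhb, the E1 beta subunit, stood at 51.4, 42.4 and 64.0 against 83.3, 84.7 and 73.6 (-0.62 ± 0.16, adjusted p = 0.0137), with DDK replicate 3 nearest to the vehicle livers. The ratio of the E1 subunits did not separate the groups: that of Pdha1 to Pdhb was 0.960, 1.07 and 0.764 in DDK and 0.728, 1.02 and 1.09 in vehicle, with overlapping groups (log2 difference -0.01, exact permutation p = 0.900). Pdhx, which anchors E3 to the core, stood at 8.33 to 11.7 in DDK and 11 to 13.7 in vehicle, without a call (-0.30 ± 0.16, 95% interval -0.65 to 0.05, adjusted p = 0.149), and it was called lower after rescaling to TPM (-0.54, adjusted p = 0.0374) and with library weights (-0.40, 0.0304). After median-ratio scaling the calls of Pdha1 (-0.33, adjusted p = 0.0964), Pdhb (-0.32, 0.192) and Dld (-0.41, 0.0710) ended, and that of Pdhb also without DDK replicate 2 (0.0636). Part of Pdha1's exons overlaps Map3k15 on the opposite strand, and the library kit does not mark strand. Map3k15 had a mean FPKM of 1.93, and how shared fragments were assigned is not given in the sources used here.

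Of the genes that set the phosphorylation of pyruvate dehydrogenase, 4 were tested and only Pdk1 was called lower. Of all genes tested, 30.3% were called lower, so a single call here is not set apart from that share. The kinases Pdk1 to Pdk4 switch the complex off by phosphorylating E1 alpha, and the phosphatases Pdp1 and Pdp2 switch it on again. Pdk2, the kinase with the highest level of the 4 in these livers, stood at an FPKM of 41.2, 42.4 and 37.1 in DDK and 41.7, 43.7 and 56.4 in vehicle, with overlapping groups (-0.22 ± 0.14, 95% interval -0.54 to 0.11, adjusted p = 0.245), and was called lower under TPM (-0.45, adjusted p = 0.0378). Pdk1 stood at 8.67, 10.6 and 10.9 against 12.5, 16.2 and 15.2, and it was the only kinase called (-0.50 ± 0.15, adjusted p = 0.0255). Its call ended with 3 of the scalings, by median ratio (-0.21, adjusted p = 0.282), by quantiles (-0.25, 0.194) and by length (-0.18, 0.288). It also ended with DDK replicate 1 (0.108) or 2 (0.0637) or vehicle replicate 2 (0.0885) or 3 (0.0865) left out.

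Pdk4, the kinase induced by fasting and fatty acids, was tight among DDK livers and wide among vehicle livers. Its FPKM was 13.5, 14.7 and 13.6 in DDK and 22.0, 5.97 and 18.7 in vehicle, so the DDK livers lay between vehicle replicate 2 and the other 2 vehicle livers. The fold change was 0.02 ± 0.37 (95% interval -0.79 to 0.84, adjusted p = 0.966), and it turned on vehicle replicate 2, without which Pdk4 was called lower (-0.52 ± 0.15, adjusted p = 0.0328). Pdp2 stood at 6.47, 6.10 and 6.33 in DDK and 5.87, 8.25 and 7.63 in vehicle (-0.17 ± 0.15, 95% interval -0.50 to 0.17, adjusted p = 0.392), with vehicle replicate 1 below the DDK livers. Pdk3 and Pdp1 were close to absent, at 0.00654 to 0.0201 and 0.0342 to 0.15 in DDK and 0.0382 to 0.133 and 0.140 to 0.348 in vehicle, which rests on 2 to 52 fragments per library for Pdk3 and 4 to 52 for Pdp1, and neither was tested.

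Pyruvate carboxylase, the anaplerotic entry of pyruvate, had the largest fold change of the 32 tested members as deposited. Pcx (chromosome 19, 4510472 to 4621752) stood at an FPKM of 102, 102 and 94.7 in DDK replicates 1 to 3 and at 184, 246 and 264 in vehicle replicates 1 to 3. The DDK livers were nearly alike and all below the lowest vehicle liver, vehicle replicate 1, and Pcx fell by 1.19 ± 0.15 on the log2 scale (adjusted p = 0.000975), to 0.430 of the vehicle mean. Its fold change ranged from -1.43 to -0.88 over the 19 alternatives. Set against pyruvate dehydrogenase, the competing fate of pyruvate, its ratio to Pdha1 was 2.06, 2.26 and 1.94 in DDK and 3.03, 2.84 and 3.31 in vehicle. That log2 ratio was 1.04 ± 0.11 (SD, n = 3) in DDK and 1.60 ± 0.11 in vehicle, without overlap (difference -0.56, exact permutation p = 0.1, adjusted p = 0.171).

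Citrate synthase and the cytosolic aconitase were both called lower. Cs, citrate synthase (chromosome 10, 128337734 to 128362479), stood at an FPKM of 34.9, 35.1 and 40.3 in DDK and 62.4, 67.8 and 57.5 in vehicle, with a wide gap between the groups (-0.75 ± 0.13, adjusted p = 0.00255). Aco1, the cytosolic aconitase that also acts as iron regulatory protein, stood at 37.2, 36.6 and 40.8 against 52.5, 63.2 and 63.3 (-0.63 ± 0.13, adjusted p = 0.00543, and -0.32 with adjusted p = 0.0768 after median-ratio scaling).

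The NAD-dependent isocitrate dehydrogenase is built from the catalytic subunit Idh3a and the regulatory subunits Idh3b and Idh3g, and Idh3a alone was called. Idh3a stood at an FPKM of 11.7, 11.8 and 11.6 in DDK and 19.2, 18.6 and 17.7 in vehicle, with hardly any spread in either group (-0.62 ± 0.12, adjusted p = 0.00426, and -0.32 with adjusted p = 0.0925 after median-ratio scaling). Idh3b stood at 110.1, 112 and 124 against 131, 128 and 129 (-0.17 ± 0.12, 95% interval -0.43 to 0.09, adjusted p = 0.272). Idh3g stood at 47.7, 48.0 and 42.9 against 54.6, 51.6 and 46.4, with overlapping groups (-0.13 ± 0.12, 95% interval -0.41 to 0.14, adjusted p = 0.396). Both regulatory subunits were called lower under TPM (-0.40, adjusted p = 0.0224 for Idh3b and -0.37, 0.0275 for Idh3g) and turned to 0.14 and 0.17 after median-ratio scaling. The within-library ratio of Idh3a to Idh3b went from 0.147, 0.145 and 0.136 in vehicle to 0.106, 0.105 and 0.0935 in DDK, and that of Idh3a to Idh3g from 0.352, 0.361 and 0.381 to 0.246, 0.247 and 0.270. Neither ratio overlapped between the groups (log2 differences -0.45 and -0.48, exact permutation p = 0.1 for each, adjusted p = 0.171), and they were -0.28 and -0.28 with the length correction and -0.19 and -0.38 with quantile normalization.

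The NADP-dependent isocitrate dehydrogenases, which make NADPH, had 1 call between them, for the mitochondrial enzyme. Idh2, the mitochondrial enzyme (chromosome 7, 80094846 to 80115392), stood at an FPKM of 18.8, 19.0 and 17.6 in DDK and 40.4, 34 and 42.8 in vehicle. It fell by 1.04 ± 0.13 on the log2 scale (adjusted p = 0.000911), to 0.473 of the vehicle mean, and no DDK liver came near the vehicle range. Idh1, the cytosolic and peroxisomal enzyme, stood at 169.6, 160.1 and 194 against 179.7, 192 and 139, with overlapping groups (0.04 ± 0.15, 95% interval -0.30 to 0.39, adjusted p = 0.831). The ratio of Idh1 to Idh2 was 9.02, 8.43 and 11.1 in DDK and 4.45, 5.65 and 3.25 in vehicle (log2 difference 1.08, no overlap, exact permutation p = 0.1, adjusted p = 0.171). The length behind the FPKM of Idh2 was 5556 bp, while its merged exons in GENCODE M21 span 2588 bp, so the level of this ratio depends on the gene model used.

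Of the 2-oxoglutarate dehydrogenase complex, which makes succinyl-CoA, both genes besides Dld were called lower. Ogdh, the E1 subunit, stood at an FPKM of 16.9, 18.0 and 18.7 in DDK and 25.7, 26.2 and 29.9 in vehicle (-0.58 ± 0.12, adjusted p = 0.00648), without overlap. Dlst, the E2 succinyltransferase, stood at 51.7 to 60.6 against 65.5 to 85.6 (-0.48 ± 0.14, adjusted p = 0.0238). The call of Ogdh ended after median-ratio scaling (-0.28, adjusted p = 0.108) and length correction (-0.28, 0.0853), and that of Dlst under both of these (-0.18, 0.350, and -0.24, 0.160) and with quantiles (-0.44, 0.0557). Leaving out DDK replicate 1 (adjusted p = 0.0922) or 2 (0.0808) or vehicle replicate 2 (0.0789) or 3 (0.0953) also ended the call of Dlst.

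Succinyl-CoA ligase joins a shared alpha subunit, Suclg1, to a beta subunit that sets whether GTP (Suclg2) or ATP (Sucla2) is made, and both beta subunits were called lower, each with a fold change of -0.87. Suclg2 (chromosome 6, 95473009 to 95718800) stood at an FPKM of 57.9, 60.4 and 62.1 in DDK and 97.4, 120.1 and 115 in vehicle (-0.87 ± 0.13, adjusted p = 0.00154). Sucla2 (chromosome 14, 73525319 to 73596142) stood at 32.9, 30.4 and 44.3 against 53.5, 75.1 and 70.6 (-0.87 ± 0.18, adjusted p = 0.00540), with DDK replicate 3 and vehicle replicate 1 nearest to each other. The ratio of Sucla2 to Suclg2 overlapped between the groups, at 0.503 to 0.713 in DDK and 0.549 to 0.626 in vehicle (log2 difference -0.01, exact permutation p = 1). Suclg1 stood at 236, 225 and 217 in DDK and 251, 252 and 242 in vehicle, without overlap but without a call (-0.13 ± 0.12, 95% interval -0.39 to 0.13, adjusted p = 0.378), and its fold change was -0.37 under TPM (adjusted p = 0.0223) and 0.18 after median-ratio scaling.

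The last steps of the cycle were not called lower in the mitochondrion. Fh1, fumarase, stood at an FPKM of 155, 157 and 155 in DDK and 139, 128 and 125 in vehicle, with all DDK livers above all vehicle livers (0.26 ± 0.12, 95% interval -0.00 to 0.51, adjusted p = 0.0995). It was called higher when scaled by median ratio (0.57, adjusted p = 0.0217) or by length (0.34, 0.0286), when libraries were weighted (0.29, 0.0263), and with vehicle replicate 1 left out (0.30, 0.0377). Mdh2, mitochondrial malate dehydrogenase, stood at 204, 213 and 236 against 237, 178 and 188, with overlapping groups (0.13 ± 0.14, 95% interval -0.20 to 0.45, adjusted p = 0.499). Mdh1, the cytosolic enzyme and a member of the malate-aspartate shuttle, stood at 187, 183 and 266 against 317, 354 and 315 (-0.65 ± 0.16, adjusted p = 0.0126). DDK replicate 3 lay between the other DDK livers and the vehicle livers for Mdh1, whose call ended without DDK replicate 1 (adjusted p = 0.0560) or DDK replicate 2 (0.0642) and after median-ratio scaling (-0.34, 0.182). The ratio of Mdh1 to Mdh2 was 0.917, 0.861 and 1.12 in DDK and 1.34, 1.99 and 1.68 in vehicle, without overlap (log2 difference -0.78, exact permutation p = 0.1, adjusted p = 0.171).

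**Figure D2:**
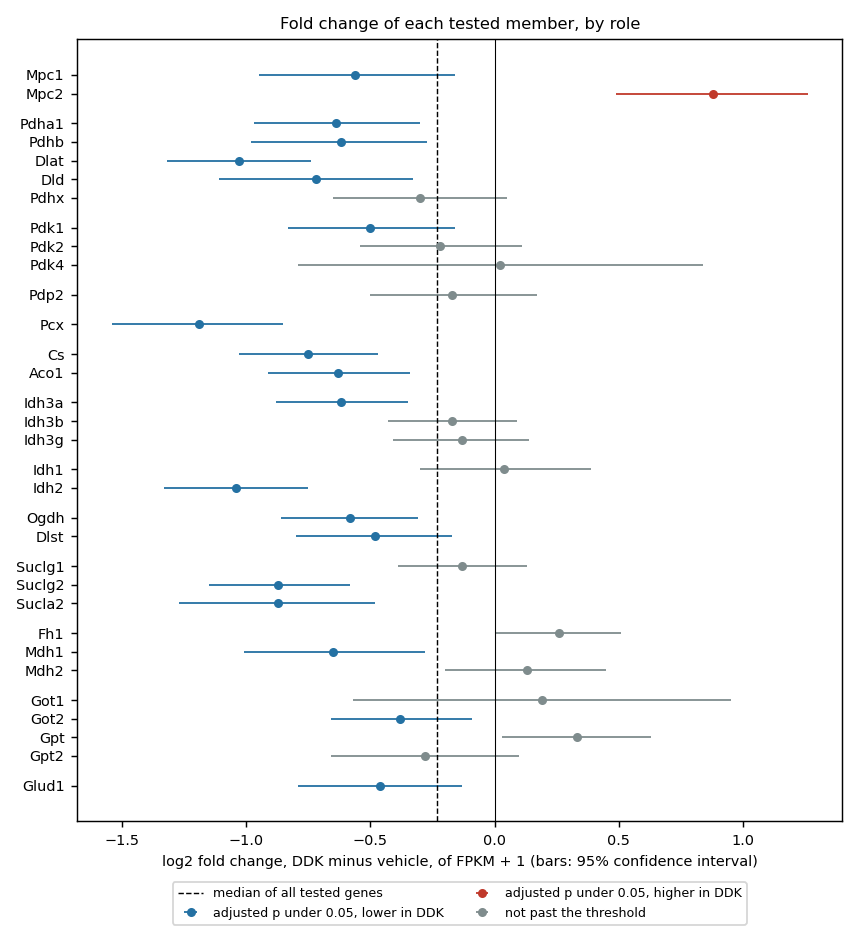
Log2 fold change (DDK minus vehicle, of FPKM + 1) of each of the 32 tested members with its 95% confidence interval, by role; the dashed line is the median of all tested genes, -0.23. Pcx (-1.19), Idh2 (-1.04) and Dlat (-1.03) lie furthest left and Mpc2 (0.88) furthest right, and the intervals of Pdk4 and Got1 are the widest.

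Of the 5 enzymes that exchange cycle intermediates with amino acids, Glud1 and Got2 were called lower, where 30.3% of all genes were. Glud1, glutamate dehydrogenase, stood at an FPKM of 239.7, 253 and 324 in DDK and 346, 394 and 376 in vehicle (-0.46 ± 0.15, adjusted p = 0.0337), and its call ended with low genes kept in (0.0644) and when scaled by median ratio (-0.15, 0.526) or by length (-0.18, 0.293). It also ended with DDK replicate 1 (0.138) or 2 (0.127) or vehicle replicate 2 (0.0983) or 3 (0.0985) left out. Got2, the mitochondrial aspartate transaminase, stood at 199, 204 and 209 against 234, 283 and 281 (-0.38 ± 0.13, adjusted p = 0.0406). That call ended under more of the alternatives than any other of the 19. It ended with DDK replicate 1 (0.13), 2 (0.118) or 3 (0.0652) or vehicle replicate 2 (0.125) or 3 (0.137) left out, with low genes kept in (0.0504), and when scaled by median ratio (-0.07, 0.750) or by length (-0.16, 0.261). Got1, the cytosolic aspartate transaminase, varied between livers of both groups, at 61.5, 77.7 and 34 in DDK and 38.0, 35.8 and 79.3 in vehicle (0.19 ± 0.34, 95% interval -0.57 to 0.95, adjusted p = 0.667). DDK replicate 3 lay with vehicle replicates 1 and 2, and vehicle replicate 3 with DDK replicate 2.

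The alanine transaminases, which turn alanine into pyruvate, lay on opposite sides of 0 without a call. Gpt, the cytosolic form measured in blood as ALT, stood at an FPKM of 222, 234 and 206 in DDK and 155, 174 and 196 in vehicle, without overlap and without a call (0.33 ± 0.13, 95% interval 0.03 to 0.63, adjusted p = 0.0705). It was called higher when scaled by median ratio (0.64, adjusted p = 0.0109) or by length (0.45, 0.0245) and when libraries were weighted (0.29, 0.0409). Gpt2, the mitochondrial form, stood at 67.1, 80.4 and 71.2 against 71.4, 86.2 and 112, with overlapping groups (-0.28 ± 0.17, 95% interval -0.66 to 0.10, adjusted p = 0.208), and it was called lower without vehicle replicate 1 (-0.43, adjusted p = 0.0393), under TPM (-0.51, 0.0428) and with library weights (-0.39, 0.0374). The ratio of Gpt to Gpt2 was 3.30, 2.91 and 2.89 in DDK and 2.18, 2.02 and 1.75 in vehicle, without overlap (log2 difference 0.61, exact permutation p = 0.1, adjusted p = 0.171). For the aspartate pair the ratio of Got1 to Got2 overlapped, at 0.163 to 0.381 in DDK and 0.127 to 0.282 in vehicle (log2 difference 0.57, exact permutation p = 0.200, adjusted p = 0.267).

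Across the 12 ratios 7 had no overlap between the groups. Of single genes 53.3% had none, but their levels move with a factor that scales the whole library and ratios do not. The share without overlap over other gene pairs was not computed. The ratios without overlap were Mpc1 to Mpc2, Idh1 to Idh2, Mdh1 to Mdh2, Gpt to Gpt2, Pcx to Pdha1 and Idh3a to each of Idh3b and Idh3g. Their p of 0.1 is the smallest that the design allows, so none can pass 0.05. All 7 kept their direction under the 10 alternatives run for ratios. Ratios that overlapped, besides those given above, were Pdk1 to Pdk2 (log2 difference -0.28, exact permutation p = 0.200) and Pdk4 to Pdk2 (0.24, exact permutation p = 0.700).

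**Figure D3:**
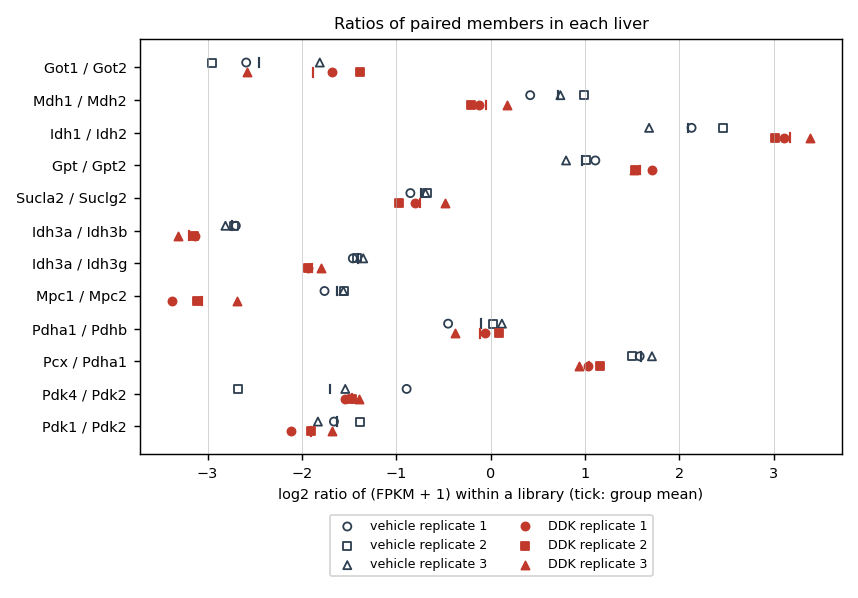
Log2 ratio of paired members within each library, with DDK livers filled, vehicle livers open and a tick at each group mean. The DDK and vehicle livers are furthest apart for Mpc1 / Mpc2 (means -3.06 and -1.62) and Idh1 / Idh2 (3.17 and 2.09), and they overlap for Sucla2 / Suclg2 and Pdha1 / Pdhb.

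**Figure D4:**
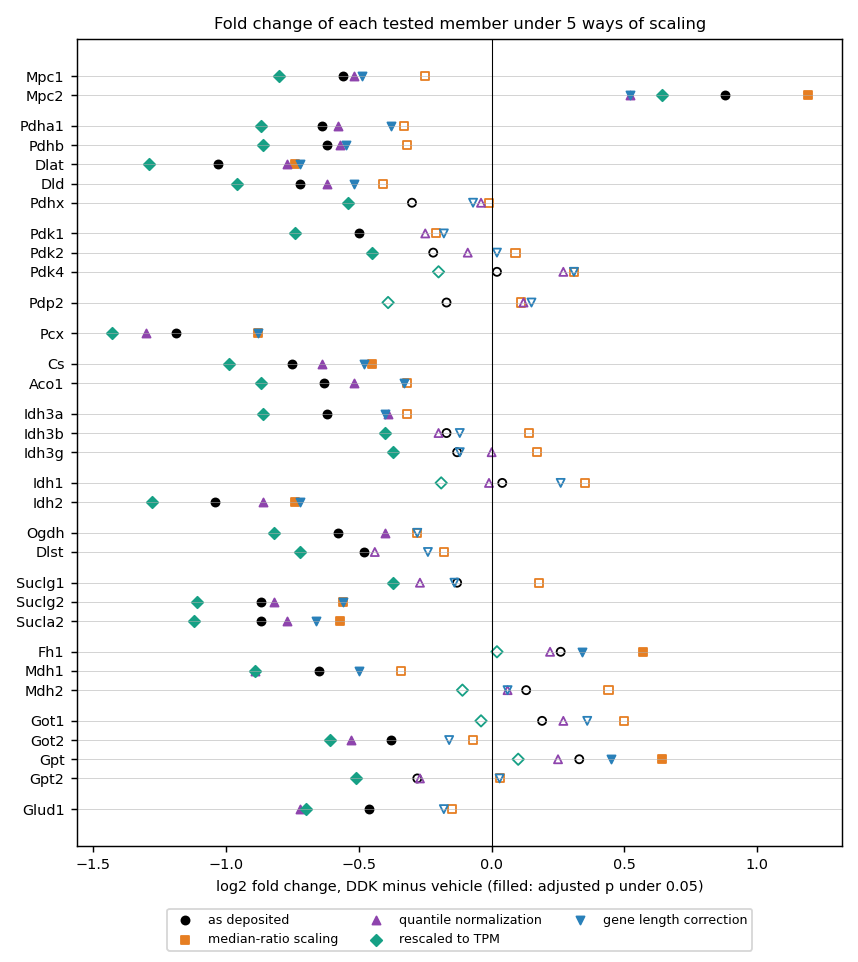
Log2 fold change of each tested member (DDK minus vehicle) as deposited and under 4 other scalings, with filled symbols where the adjusted p is under 0.05. Median-ratio scaling shifts members to the right and leaves 6 called lower, while rescaling to TPM shifts them to the left and calls 24 lower.

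Neighbouring genes of the pathway that are not in the set were taken from a list of 44, of which 38 were tested. Of these, 18 were called lower (47.4%, against 30.3% of all genes) and 4 higher (10.5%, against 10.2%), with a median of -0.44. The 4 called lower with the smallest p were Pklr, the liver pyruvate kinase that makes pyruvate (an FPKM of 80.9 ± 21.2 in vehicle and 22.9 ± 2.39 in DDK, log2 fold change -1.75, adjusted p = 0.000508), Glul, glutamine synthetase (909 ± 46.6 and 442 ± 31.5, -1.04, 0.000914), Ldha, lactate dehydrogenase A (309 ± 30.2 and 156 ± 16.0, -0.98, 0.00133), and Sdha. The 4 called higher were Gls2, the liver glutaminase (69.4 ± 15.8 in vehicle and 128 ± 7.41 in DDK, 0.90, adjusted p = 0.00369), Mcee, methylmalonyl-CoA epimerase of the propionate route into the cycle (84.7 ± 17.8 and 154 ± 20.8, 0.87, 0.00450), Sdhb, and Ppm1k, the phosphatase that activates branched-chain keto acid dehydrogenase (10.3 ± 0.974 and 15.8 ± 1.08, 0.57, 0.00884). Between succinyl-CoA ligase and fumarase, succinate dehydrogenase was mixed, with Sdha at -1.02 ± 0.16 and Sdhd at -0.51 ± 0.16 called lower, Sdhb at 0.62 ± 0.13 called higher and Sdhc at -0.18 ± 0.12 without a call. Of 12 regulators known to act on genes of this pathway, all tested, 4 were called lower (33.3%, against 30.3%) and 1 higher (8.33%, against 10.2%), shares close to those of all genes. They are named here after their values were seen. Those lower were Ppara (-0.78), the fatty acid receptor of the fasting response, Gabpa (-0.77), an ETS factor of mitochondrial genes, Hif1a (-0.91), the hypoxia factor that induces Pdk1, and Nr3c1 (-0.56), the glucocorticoid receptor. The 1 higher was Esrra (0.48), an orphan receptor that drives mitochondrial genes, at an FPKM of 29.9, 30.0 and 30.3 in DDK and 21.7, 18.6 and 23.6 in vehicle.

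The promoters of members called lower under every alternative are shown to let their sequence be set beside their values, for the 4 whose window holds no annotated exon. Sequences are from RefSeq on GRCm38.p6, in which 31 of the 34 members had an entry. Each run is the 250 bases before the start that RefSeq gives, 5′ to 3′ on the gene's strand. For Cs and Suclg2 that start lies upstream of the outermost one in GENCODE M21, and for Pcx the table lists 2 starts, of which 1 is used. Capitals mark matches to CCAAT (the box bound by NF-Y) or GGGCGG (the GC box of the Sp1 family) on either strand, where matches on the opposite strand read ATTGG and CCGCCC. Pcx lies at chr19:4510222-4510471 on the plus strand, Dlat at chr9:50659781-50660030 on the minus strand, Cs at chr10:128337477-128337726 on the plus strand and Suclg2 at chr6:95718847-95719096 on the minus strand.
Pcx: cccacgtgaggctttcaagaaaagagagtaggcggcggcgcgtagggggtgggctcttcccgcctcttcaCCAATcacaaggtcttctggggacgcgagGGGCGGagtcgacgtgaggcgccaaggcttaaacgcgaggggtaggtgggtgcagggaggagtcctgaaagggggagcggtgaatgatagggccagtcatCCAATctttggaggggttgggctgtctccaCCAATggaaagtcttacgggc
Dlat: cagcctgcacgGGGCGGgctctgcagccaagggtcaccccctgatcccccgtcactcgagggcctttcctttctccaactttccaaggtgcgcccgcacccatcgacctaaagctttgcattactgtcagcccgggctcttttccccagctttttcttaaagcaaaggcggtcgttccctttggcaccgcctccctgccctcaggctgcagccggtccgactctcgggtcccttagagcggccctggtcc
Cs: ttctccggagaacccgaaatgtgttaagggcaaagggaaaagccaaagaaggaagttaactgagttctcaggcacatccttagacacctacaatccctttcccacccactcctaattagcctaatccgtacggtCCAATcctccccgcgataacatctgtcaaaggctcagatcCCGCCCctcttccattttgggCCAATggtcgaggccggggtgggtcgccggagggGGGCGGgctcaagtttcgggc
Suclg2: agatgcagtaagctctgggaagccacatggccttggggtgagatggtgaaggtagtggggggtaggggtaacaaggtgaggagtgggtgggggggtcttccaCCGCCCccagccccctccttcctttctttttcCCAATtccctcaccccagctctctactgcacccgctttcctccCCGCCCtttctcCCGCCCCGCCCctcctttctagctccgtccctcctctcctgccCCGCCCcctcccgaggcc

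Counted from the RefSeq start, Pcx had CCAAT at 180, 51 and 21 bases upstream and a GC box at 151, Cs had CCAAT at 116 and 55 and GC boxes at 76 and 21, and Suclg2 had CCAAT at 116 and 5 GC boxes, at 148, 73, 61, 56 and 18. Dlat had a GC box at 239 and no CCAAT. Over the 31 member promoters, 18 held CCAAT (58.1%, against 36.9% of 8608 tested genes with an entry and 34.5% of all 27018 promoters) and 21 held GGGCGG (67.7%, against 59% and 32.9%). Other motifs were rare, with AAGGTCA, the element of the estrogen-related receptors, in 1 member (Got1, 3.23% against 2.93% of tested genes and 4.05% of all promoters), the cyclic AMP element TGACGTCA in 2 (Ogdh and Mdh2, 6.45% against 2.6% and 1.62%), and a palindromic NRF1 motif (1.74% of tested genes, 0.781% of all) and the ETS motif CCGGAAGT (6.25%, 2.93% of all) in 0. The CCAAT box was present both in members called lower, such as Pcx, and in Mpc2, the member called higher. Members without a call held it too, namely Pdk2, Pdk4, Pdp2, Idh3b, Idh1, Fh1 and Got1. A match is a description of these windows and shows no binding.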

How the data were processed

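Liver RNA-seq of 6 mice was used, 3 with DDK and 3 with vehicle, each a separate mouse per the series' design text, with groups taken from the sample titles. Per the labels' protocols, libraries were made with an NEBNext Ultra kit from 1.3 µg of RNA. The values are the authors' deposited FPKM per gene. Per the submitters' processing notes the build was GRCm38 (mm10). The aligner, counter and annotation are not given in the sources used here, nor is how fragments shared by several genes were divided, which matters for the 5 members whose exons overlap a gene on the opposite strand (Mpc1, Pdha1, Idh3b, Mdh1 and Got2) and for Mpc1 and Got2, which have annotated pseudogenes.

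Whole fragments, gene lengths and library totals were recovered from the FPKM by arithmetic, with 99.99% of the 16573 genes above 0 whole within 0.01 of a fragment. The 10681 genes that reached an FPKM of 0.5 in 3 or more libraries were tested on log2(FPKM + 1), which understates changes of low genes. The test was limma (version 3.58.1, run under R 4.3.3), its prior variance following expression level, with Benjamini-Hochberg adjustment. Errors are SE for fold changes and SD for levels. Paired members were compared by exact two-sided permutation over libraries. The test was also run on simulated data in which a small part of the genes was changed. Those data held neither the shift over all genes nor the trend with gene length seen here, so the run cannot speak to either. The members and lists were chosen with earlier results of these data known. Members were named in full when called and among the 16 with the largest fold change, or when leading their role, and the values of the others were added after they had been seen. Positions are those of GENCODE M21. Alternatives were other pseudocounts, filters, scalings, a length correction, removal of the 20 most abundant genes, limma voom on recovered fragments, library weights, no trend, the replicate number as a block and each library left out.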

Additional observations from a re-analysis of the deposited data

How the results depend on the processing

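The 18 lower and 1 higher members moved as follows. Median-ratio scaling left 6 lower and 3 higher, with 1650 genes lower and 1963 higher in all, against 3234 and 1093 as deposited. Length correction gave 3 higher members, with 1844 genes lower and 1722 higher, library weights gave 3 higher members, quantile normalization gave 1743 genes lower and 1886 higher, and TPM 4929 and 631. Leaving out 1 library gave 11 to 18 lower members (11 without DDK replicate 2) and 1 to 2 higher (2 without vehicle replicate 1), with 1738 to 4330 genes lower and 610 to 1356 higher. The cause was not tested. Of 608 values of members under alternatives, 522 kept direction and side of the threshold, 47 lost a call and 16 gained one with the same sign. The other 23 changed sign, among them Pdk4 without vehicle replicate 2, which was also called lower.

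All sign changes were in members or ratios without a call as deposited. They were Pdk2 at 0.09, Pdp2 at 0.11, Idh3b at 0.14, Idh3g at 0.17, Suclg1 at 0.18 and Gpt2 at 0.03 with median-ratio scaling, Pdk2 at 0.02, Pdp2 at 0.15, Gpt2 at 0.03 and the ratio of Pdha1 to Pdhb at 0.17 with length correction, and Pdp2 at 0.12, Idh1 at -0.01 and the ratio of Sucla2 to Suclg2 at 0.05 with quantiles. In TPM they were Pdk4 at -0.20, Idh1 at -0.19, Mdh2 at -0.11 and Got1 at -0.04, and without the 20 most abundant genes Pdk4 at -0.07 and Idh1 at -0.06. Over the 6 libraries left out in turn, Pdk4 ranged from -0.52 (without vehicle replicate 2, called lower) to 0.35, Idh1 from -0.09 to 0.14, Got1 from -0.06 to 0.55, the ratio of Sucla2 to Suclg2 from -0.14 to 0.10, that of Pdha1 to Pdhb from -0.19 to 0.12 and that of Pdk4 to Pdk2 from -0.25 to 0.65.

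The labels do not say that replicate numbers pair the samples. Deviations of same-numbered livers from their group means correlated at 0.14, -0.15 and 0.06 over genes. Differently numbered livers were not compared, so these values cannot decide whether a litter, cage or day was shared. The fit with the replicate number as a block gave 17 lower members and 1 higher, with 3082 genes lower and 1052 higher, and ended the call of Got2 (adjusted p = 0.0522) and no other member's. Depth limits Pdk3 and Pdp1, with 2 to 52 and 4 to 52 fragments in a library.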
